A study of Mus musculus with 8 samples.

Results

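The genes of the primary cilium's transport machinery and of its transition zone were described in whole mouse embryos at embryonic day 9.5. Members were chosen by name: every symbol of the deposited table that begins with Ift or Bbs followed by a digit, and 24 further named genes of ciliary motors, membrane and transition zone. Of 47 symbols that matched, 46 reached 1 TPM (a transcript level corrected for gene length and scaled to one fixed total per library) in at least 4 of the 8 embryos, out of 13596 genes that did so among 41709 symbols. The remaining symbol, Ift88os, was listed at 0 in every embryo. The 46 genes comprise 11 of the IFT-B complex, 7 of IFT-A and its adaptor Tulp3, 3 motor subunits, 8 of the BBSome and its chaperonin, 4 of the ciliary membrane and EvC zone, 12 of the transition zone and 1 of the basal body.

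RNA came from 8 single embryos, 4 with wild-type Smo (WT) and 4 homozygous for the K399A substitution in Smo (mutant), from crosses of heterozygous parents. Smo encodes Smoothened, the membrane protein that passes the Hedgehog signal on. The substitution is in the germline and so is present in all cells of the mutants. Several litters were used, the labels do not tie an embryo to a litter, and no strain, sex or batch is given. Because whole embryos were sequenced, fewer ciliated cells and less ciliary RNA per cell cannot be told apart.

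The primary cilium is a microtubule-based projection that most embryonic cells carry, and in vertebrates it is where Hedgehog signalling takes place, with Smoothened accumulating in it when the pathway is active. Intraflagellar transport (IFT) trains made of IFT-B and IFT-A are carried towards the tip by kinesin-2 and back by dynein-2, the BBSome takes membrane proteins out, and the transition zone at the base controls which proteins enter. In mice, loss of many of these genes disturbs Hedgehog-dependent patterning of the neural tube and limbs.

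RFX transcription factors, which regulate many ciliary genes, bind a motif called the X-box, and the promoters of the members were searched for it in RefSeq windows of 300 bases (build GRCm38.p6, 250 before to 50 after each start, both strands). Of the 46 members 42 had a window. An X-box with a spacer of 0 to 3 bases was found in 6 of these 42 (14.3%), against 1.85% of 10545 kept genes and 1.75% of all 27025 genes with a window. Its half-site GTTGCC, one arm of many X-boxes, was found in 20 of 42 (47.6%), against 14.5% of kept genes and 14.1% of all. All 6 members with an X-box were among the 20, an overlap largely given by the motif. In Tctn1, Tctn3, Ift57, B9d2 and Bbs1 the half-site lies inside the X-box, and in Tctn2 it is a separate site. The sites of the 6 members with an X-box are printed in the direction of each gene's transcription, with the X-box in capitals. In Tctn1, B9d2 and Bbs1 the site begins after the annotated start, and fewer flanking bases are given.
Tctn2, transition zone, chr5:124598672-124598715, plus strand: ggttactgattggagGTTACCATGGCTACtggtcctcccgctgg
Tctn3, transition zone, chr19:40612344-40612386, minus strand: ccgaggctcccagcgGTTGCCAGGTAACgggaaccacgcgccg
Ift57, IFT-B, site farther from the start, chr16:49699192-49699235, plus strand: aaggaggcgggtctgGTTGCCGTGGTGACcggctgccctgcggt
Ift57, IFT-B, site nearer the start, chr16:49699219-49699261, plus strand: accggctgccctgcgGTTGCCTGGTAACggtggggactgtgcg
Tctn1, transition zone, chr5:122264411-122264432, minus strand: ctgtgactGTTGCCCGGGCAAC
B9d2, transition zone, chr7:25680788-25680817, plus strand: aacctgctGTTGCCCCAGCAACagtcgggg
Bbs1, BBSome, chr19:4906605-4906634, minus strand: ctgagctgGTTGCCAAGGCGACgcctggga

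Of the 6 members with an X-box, 4 were transition zone genes, of 11 such genes with a window. Members without an X-box but with a half-site included Kif3a and Ift27, shown here with the half-site in capitals because both are among the genes described by embryo.
Kif3a, motor, chr11:53567256-53567291, plus strand: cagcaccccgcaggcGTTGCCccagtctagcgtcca
Ift27, IFT-B, chr15:78174082-78174105, minus strand: ggcgggttgatgatgGTTGCCagg
The CCAAT box was found in 26 of 42 members (61.9%) and in 43.3% of kept genes. TGGGTGGTC, bound by GLI factors, was found in 0 of 42 members and in 0.247% of kept genes. A match or its absence describes the letters of these windows only. The 6 members with an X-box had a median log2 fold change of mutant against WT of -0.13 (-0.35 to -0.02). The 36 without one had a median of -0.15 (-0.44 to 0.04). Mutants 3 and 4 were both below the other 6 embryos for 2 of the 6 and for 25 of the 36. That held for 32.7% of all kept genes, and the difference was not tested.

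The members were expressed at low to moderate levels that differed among the complexes. Mean levels over the 8 embryos ran from 4.02 TPM for Tmem67 to 50.1 TPM for Ift74, with a median of 12.7 TPM, against 18.1 TPM over all kept genes. The median was 17.1 TPM in IFT-B, 11.8 TPM in IFT-A, 7.81 TPM in the BBSome group and 9.71 TPM in the transition zone. Between 331 and 3782 reads per library stood behind each of 45 members, as recovered from the steps between TPM values. At the lowest of these, counting alone gives a coefficient of variation of 5.5%, and less where there are more reads. Among WT embryos the members varied little, with a median coefficient of variation of 6.48% (6.41% over all kept genes). Among mutants it was 14.6% (12.8% over all kept genes), and it exceeded the WT value in 42 of 46 members (91.3%) and in 81.6% of all kept genes.

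**Figure D1:**
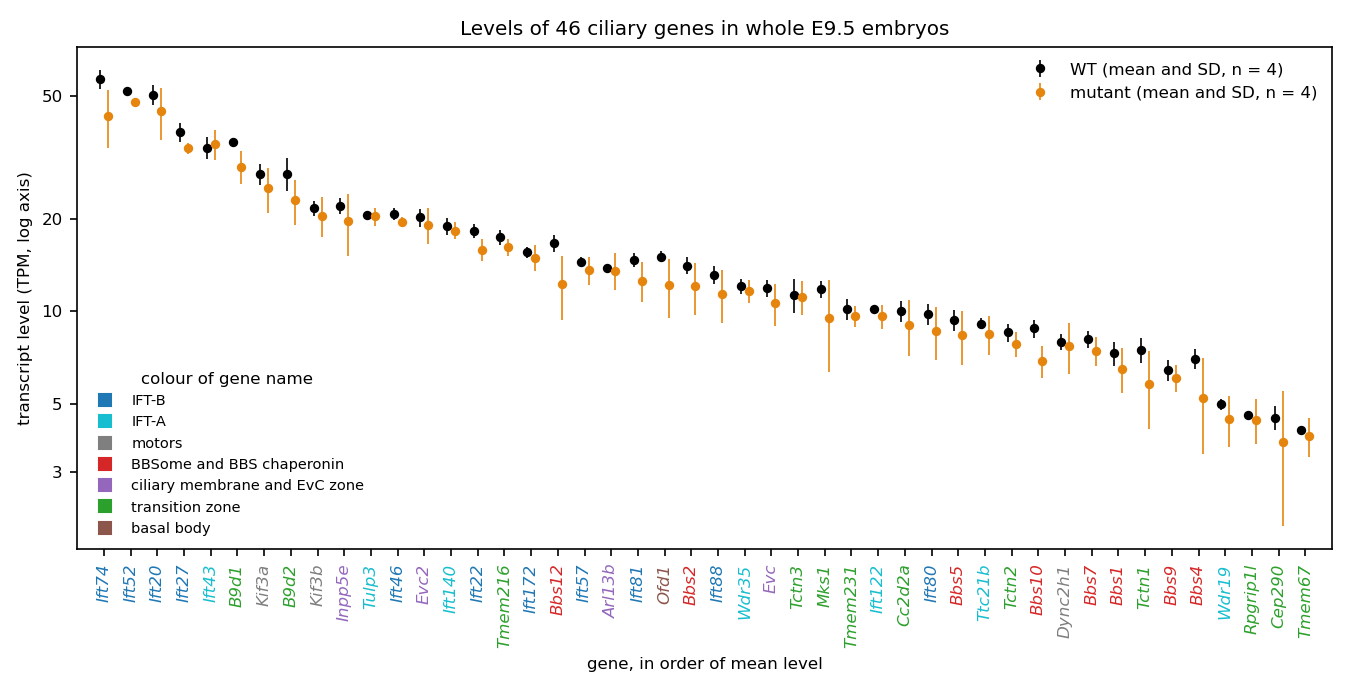
Mean and SD (n = 4) of TPM on a log axis for each of the 46 genes in WT (black) and mutant (orange) embryos, in order of mean level, with gene names coloured by role. Levels run from 4.02 TPM (Tmem67) to 50.1 TPM (Ift74), and the orange bars are the wider ones in 42 of 46 genes relative to their means.

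Partners of one complex were not at equal levels. Ift74 and Ift81 encode the chains of a dimer that binds tubulin. Their TPM ratio was 3.66, 3.95, 3.88 and 4.00 in WT 1 to 4, against 3.44, 3.74, 3.39 and 3.09 in mutants 1 to 4. The ratio of Ift52 to Ift88, neighbours in the IFT-B core, was 4.06, 3.69, 4.05 and 4.18 in WT against 3.77, 3.58, 4.85 and 5.01 in mutants, so that it was highest in mutants 3 and 4. Kif3a and Kif3b, the motor chains of kinesin-2, stayed near each other, at a ratio of 1.16 to 1.36 in WT against 1.19 to 1.27 in mutants. Evc2 was 1.64 to 1.77 times Evc in WT against 1.66 to 2.02 times in mutants.

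Mutant and WT were compared to ask how these transcripts differ when Smoothened carries the substitution. No member passed the test (limma on log2(TPM + 1), Benjamini-Hochberg adjusted p under 0.05 over all kept genes), and 0% of all kept genes did. The smallest adjusted p of a member was 0.299 (B9d1). On average 45 of the 46 members were lower in mutants, with Ift43 the exception, against 62.3% of all kept genes, and the median log2 fold change was -0.15 against -0.04 over all kept genes. At an unadjusted p under 0.05, limma gave 8 members lower (17.4%) and 0 higher, against 8% and 5.55% of all kept genes. Limma voom on the recovered reads, chosen after seeing the data, called 0 members and gave 11 of 45 lower at an unadjusted p under 0.05, and 0 higher, against 9.35% and 6.37% of the genes it tested. All 4 mutants lay outside the WT range on one side for 4 members, Ift52, Bbs10, Bbs12 and Ofd1, each lower in mutants, and for 0 in the other direction, against 3.82% and 3.63% of all kept genes. These counts depended on single embryos. The 8 members became 4 without WT 1 (4.68% of all kept genes), 4 without WT 2 (4.21%) and 5 without WT 4 (5.23%). They became 13 without mutant 1 (14.2%), 17 without mutant 2 (17.1%) and 5 without mutant 3 (4.17%). When limma weighted the libraries (array weights), they became 19 (20.7%). The weights were lower for mutants 1 and 2 (0.293 and 0.39) than for mutants 3 and 4 (0.92 and 0.878). The 4 without overlap became 8 without WT 3 (6.48%), 8 without mutant 1 (9.89%) and 13 without mutant 2 (12.9%).

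The lower mean rested mostly on mutants 3 and 4. The sum of TPM over the 46 members was 796.0, 817.5, 759.7 and 772.4 in WT 1 to 4, against 762.4, 767.8, 625.4 and 647.5 in mutants 1 to 4. Mutants 1 and 2 lay in the WT range and mutants 3 and 4 below it, and the group means were 786.4 ± 25.6 (SD, n = 4) and 700.7 ± 74.9. By role, the IFT-B sum was 293.85 to 316.14 TPM in WT, against 287.12, 288.05, 241.9 and 247.41 in mutants 1 to 4. The transition zone sum was 147.28 to 158.61 TPM in WT, against 146.76, 146.3, 120.49 and 121.18. In both roles all 4 mutants lay below every WT embryo, mutants 1 and 2 by little. In the IFT-A, motor and membrane sums, neither mutant 1 nor mutant 2 lay below WT. Both of mutants 3 and 4 lay below the other 6 embryos for 31 of 46 members (67.4%), against 32.7% of all kept genes. For mutants 1 and 2 this held for 1 member, Ift27, against 1.56% of all kept genes. Mutant 3 was below every WT embryo for 43 members (54% of all kept genes) and mutant 4 for 35 (48.7%), mutant 1 for 19 (26.2%) and mutant 2 for 10 (17.3%). Measured as log2(TPM + 1), the median deviation of the members from their WT mean came to -0.05, 0.04, -0.29 and -0.25 in mutants 1 to 4, against 0.02, 0.04, -0.12 and -0.10 for all kept genes.

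**Figure D2:**
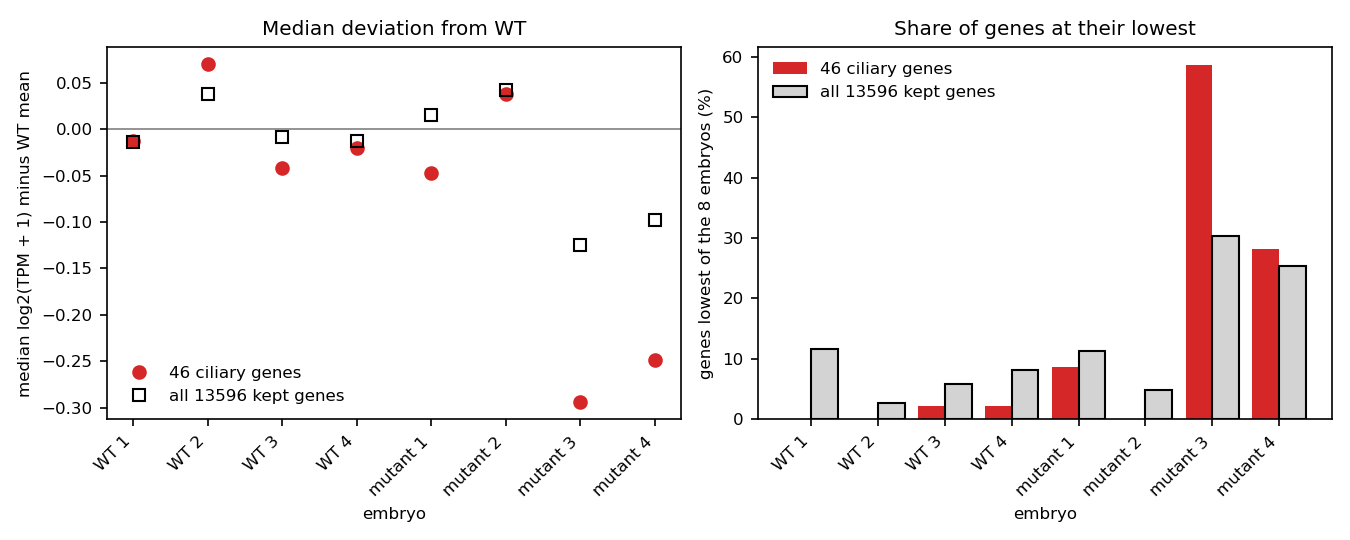
Left, the median over genes of log2(TPM + 1) minus the WT mean in each embryo, for the 46 ciliary genes (red) and all 13596 kept genes (open squares). Right, the percent of genes at their lowest level of the 8 embryos. Mutant 3 holds 27 of the 46 ciliary genes (58.7%, against 30.28% of all kept genes). Mutant 4 holds 13 (28.26%, against 25.38%).

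Leaving out mutants 3 and 4, which was decided once the values had been seen, 24 members were lower and 22 higher, with a median log2 fold change of -0.003 against 0.03 over all kept genes. In that setting 1 member, Ift27, had an unadjusted p under 0.05, lower, and 0 were higher, against 2.65% and 9.93% of all kept genes. Groups did not overlap for 10 members, 5 lower and 5 higher, against 6.33% and 16.6% of all kept genes. Without mutant 3 alone the median was -0.08. With median-ratio scaling, which divides each library by its typical gene, 42 members were lower, with a median of -0.11 against -0.004 over all kept genes, and Arl13b, Tctn3 and Tulp3 joined Ift43 above 0. That scaling gave 9 members lower and 0 higher at an unadjusted p under 0.05, against 6.91% and 8.97% of all kept genes.

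Mutants 3 and 4 stood apart in other RNAs too. The summed TPM of 10 host genes of small nucleolar RNAs, none of them at 0, was 830.9 to 1011 in WT. It was 788.2 and 942.7 in mutants 1 and 2, and 423.3 and 397.7 in mutants 3 and 4. Each of the 10 was lowest in mutants 3 and 4, against 32.7% of all kept genes. Mitochondrial mt-Nd6 stood at 4.06 TPM in mutant 3 and 10.8 TPM in mutant 4, while the other 6 embryos held 27.9 to 36.2 TPM. It was the exception among 13 genes of the mitochondrial genome, of which the other 12 were higher on average in mutants, with sums over the 13 of 46532 to 53876 TPM in WT and 58393 to 65844 TPM in mutants. Recovered depth was 59.1M to 60.4M reads in the 8 libraries, over symbols with a single gene model. Markers of yolk sac endoderm were higher in mutants for 20 of 20 kept genes, none at 0 in every embryo, but their sum was 1464 and 910.9 TPM in mutants 1 and 2, 268.4 and 168.4 TPM in mutants 3 and 4, and 37.8 to 293.9 TPM in WT. Of 15 neuronal markers, none at 0, 14 were lower, with sums of 279.0 to 517.1 TPM in WT against 190.7 to 320.7 TPM in mutants. All 10 genes of primitive red cells were kept, with a sum of 63213 TPM in mutant 3, the highest of the 8, and 24642 TPM in mutant 4, against 17334 to 59400 TPM in WT. Markers of heart muscle were higher for 13 of 15, of endothelium for 10 of 10 and of trophoblast and decidua for 8 of 8 kept genes (Psg18 at 0 throughout), and cell cycle genes were lower for 13 of 15. The part of these RNAs in the ciliary values was not tested.

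**Figure D3:**
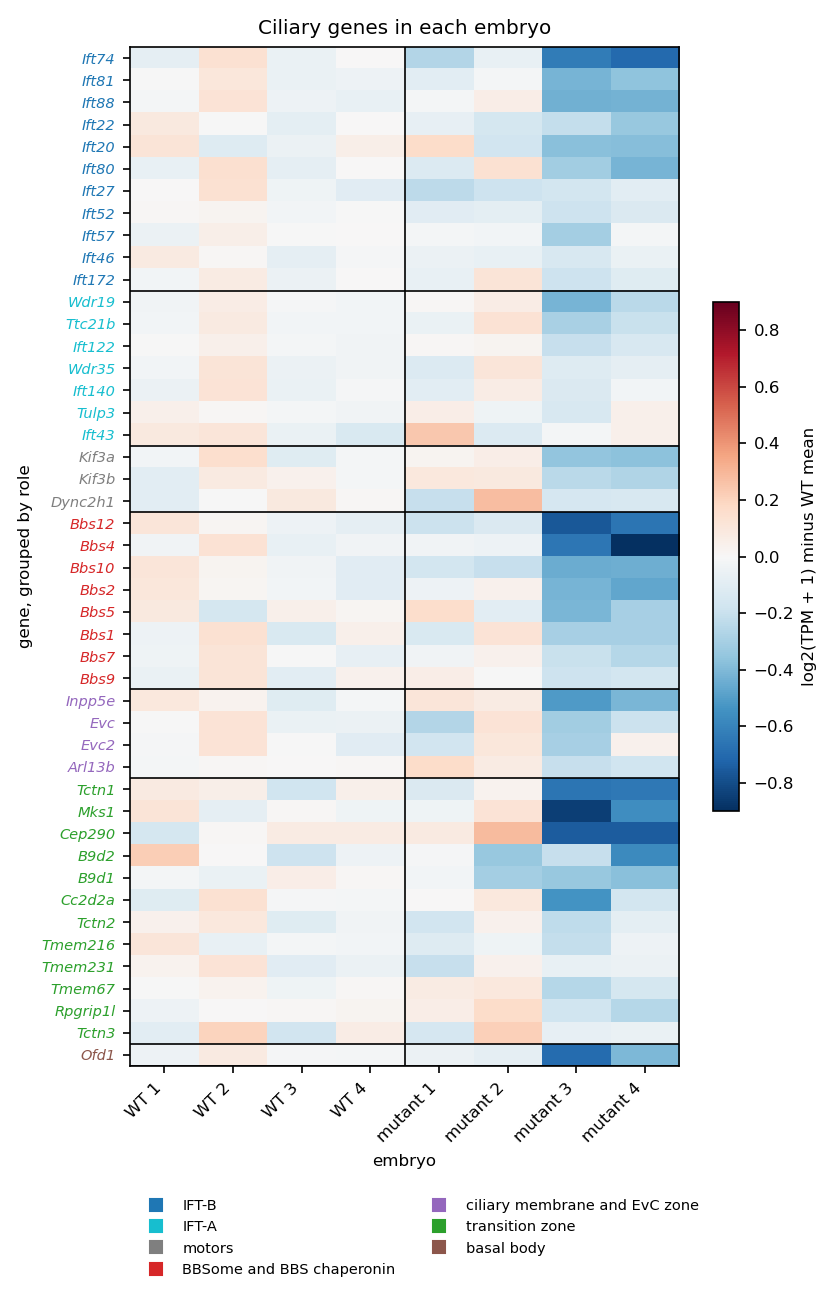
Each of the 46 genes (rows, grouped by role) in each embryo (columns), as log2(TPM + 1) minus the gene's WT mean, blue below and red above. The columns of mutants 3 and 4 are blue in nearly every row, deepest for genes such as Bbs12, Bbs4, Mks1, Cep290, Ofd1 and Ift74. Mutants 1 and 2 are nearer WT.

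IFT-B, the complex that drives transport towards the tip, had 11 of 11 members lower on average (median log2 fold change -0.18). Of these, 4 had an unadjusted p under 0.05. Beside the counts of this and every other role stand 62.3% of all kept genes lower on average and 8% lower at that p. With single embryos left out, the 4 became 1 without WT 1 (4.68% of all kept genes) or without WT 2 (4.21%). The most was 6, without mutant 2 (17.1%). The summed level of IFT-B was 304.9 ± 9.28 TPM (SD, n = 4) in WT against 266.1 ± 24.9 TPM in mutants. Ift74 (chromosome 4, 94614491 to 94693229, build GRCm38) was at 53.7, 62.7, 54.6 and 56.9 TPM in WT 1 to 4, against 47.2, 54.3, 36.4 and 34.7 TPM in mutants 1 to 4. Mutant 2 lay within the WT range and mutants 3 and 4 far below it. The log2 fold change, -0.41 ± 0.13 (SE, as for all fold changes), had a limma adjusted p of 0.300 and was -0.16 without mutants 3 and 4. Its partner Ift81 was at 14.7 ± 0.812 and 12.6 ± 1.87 TPM.

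Ift52 (chromosome 2, 163017354 to 163046141), which joins the inner and outer subcomplexes of IFT-B, was at 52.5, 53.0, 51.3 and 52.1 TPM in WT against 48.7, 49.1, 45.8 and 47.7 TPM in mutants. All 4 mutants lay below all WT embryos, by little: the log2 fold change was -0.13 ± 0.05 (limma adjusted p = 0.322), -0.09 without mutants 3 and 4, and -0.08 with median-ratio scaling. Ift27 (chromosome 15, 78159463 to 78174107), a small GTPase that takes part in removing Hedgehog pathway proteins from the cilium, was at 38.2, 42.1, 37.1 and 35.6 TPM in WT against 32.3, 33.5, 33.9 and 35.8 TPM in mutants. It differed from the other members in that mutants 1 and 2 were the lowest, and only mutant 4 reached the WT range. Its log2 fold change was -0.17 ± 0.06 (limma adjusted p = 0.329), and -0.21 without mutants 3 and 4.

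Ift22 (chromosome 5, 136908150 to 136915404), a Rab-like protein of IFT-B, was at 19.5, 18.2, 17.1 and 18.4 TPM in WT against 17.3, 16.3, 15.7 and 14.2 TPM in mutants, so that mutant 1 overlapped the lowest WT embryo (log2 fold change -0.20 ± 0.08, limma adjusted p = 0.340). Ift20 (chromosome 11, 78536361 to 78541737), which also acts at the Golgi apparatus, was among the 3 most abundant members, at 55.0, 46.5, 48.8 and 52.5 TPM in WT against 56.9, 44.7, 38.7 and 38.6 TPM in mutants. Mutant 1 was the highest of all 8 embryos and mutants 3 and 4 the lowest. Its log2 fold change of -0.19 ± 0.12 (limma adjusted p = 0.463) was -0.003 without mutants 3 and 4. The 6 other IFT-B genes, Ift46, Ift57, Ift80, Ift81, Ift88 and Ift172, had log2 fold changes of -0.22 to -0.06. Exons of Ift88 and Ift57 overlap a gene on the opposite strand, and the library kit named in the labels does not mark strand, so reads of overlapping partners cannot be told apart.

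IFT-A, which serves return transport and the entry of membrane proteins, had the smallest relative difference in summed level of the 7 roles, -1.92%. Its summed level was 109.9 ± 5.26 TPM (SD, n = 4) in WT against 107.8 ± 6.12 TPM in mutants, 6 of 7 genes were lower on average (median log2 fold change -0.05), and none had an unadjusted p under 0.05. Wdr19 (chromosome 5, 65199696 to 65260415), a core subunit also called IFT144, was at 4.85, 5.26, 4.92 and 4.87 TPM in WT against 5.02, 5.25, 3.47 and 4.05 TPM in mutants. Ttc21b (chromosome 2, 66184327 to 66256617), whose loss in mice raises Hedgehog signalling, was at 8.92, 9.67, 8.93 and 8.94 TPM in WT against 8.69, 10.1, 7.25 and 7.80 TPM in mutants. In both genes mutants 3 and 4 were lowest, and the log2 fold changes of -0.15 and -0.11 (limma adjusted p = 0.575 and 0.633) became 0.04 and 0.03 without them. Tulp3, which brings receptors to IFT-A, was at 20.6 ± 0.504 and 20.3 ± 1.34 TPM, with a 95% confidence interval for the log2 fold change of -0.17 to 0.13. Ift43 was at 34.1 ± 2.83 and 35.0 ± 3.94 TPM.

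The 3 motor genes were lower on average in mutants, none at an unadjusted p under 0.05. Kif3a (chromosome 11, 53567379 to 53601967), a motor chain of kinesin-2, was at 27.4, 31.0, 25.8 and 27.5 TPM in WT against 28.4, 29.1, 21.5 and 21.3 TPM in mutants. Mutants 1 and 2 lay within the WT range and mutants 3 and 4 below it, and the log2 fold change of -0.16 ± 0.11 (limma adjusted p = 0.514) was 0.04 without them. Dync2h1, the heavy chain of dynein-2, was at 7.97 ± 0.463 TPM in WT against 7.70 ± 1.43 TPM in mutants, and mutant 2 was the highest of the 8 at 9.84 TPM. Kif3b was at 21.6 ± 1.15 and 20.5 ± 2.98 TPM.

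All 8 genes of the BBSome and its chaperonin were lower on average (median log2 fold change -0.19), and each was lowest in mutants 3 and 4. The latter held for 32.7% of all kept genes, 72.7% of IFT-B genes and 95.5% of the basal body list given below. Their summed TPM was 80.5, 80.2, 75.3 and 74.9 in WT 1 to 4, against 74.2, 75.2, 54.9 and 54.9 in mutants 1 to 4. Bbs10 and Bbs12 encode chaperonin-like proteins that help to assemble the BBSome, and these were the genes of this group with the smallest p. Bbs10 (chromosome 10, 111298679 to 111301727) was at 9.54, 8.96, 8.55 and 8.13 TPM in WT against 7.72, 7.48, 6.18 and 6.20 TPM in mutants. Bbs12 (chromosome 3, 37312554 to 37321453) was at 18.0, 16.8, 16.0 and 15.7 TPM in WT against 14.4, 15.1, 9.36 and 10.2 TPM in mutants. In both genes all 4 mutants lay below all 4 WT embryos. The log2 fold change was -0.31 ± 0.10 for Bbs10 (limma adjusted p = 0.300) and -0.44 ± 0.15 for Bbs12 (limma adjusted p = 0.306), and -0.18 and -0.16 without mutants 3 and 4. Exons of Bbs12 overlap a gene on each strand by 32 bases, and those of Bbs4 one on the opposite strand by 194. Bbs10 rested on 360 to 546 reads per library and Bbs12 on 455 to 822. Of the BBSome subunits, Bbs4 had the widest contrast, at 6.63 to 7.76 TPM in WT, 6.80 TPM in mutant 1, 6.74 TPM in mutant 2, and 4.09 and 3.30 TPM in mutants 3 and 4. Bbs1, Bbs2, Bbs5, Bbs7 and Bbs9 had log2 fold changes of -0.22 to -0.07.

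At the ciliary membrane, Inpp5e (chromosome 2, 26396249 to 26409203), a phosphatase that keeps the membrane low in certain phosphoinositides, was at 23.6, 22.5, 20.3 and 21.7 TPM in WT against 23.9, 23.2, 15.2 and 16.3 TPM in mutants. Mutant 1 was the highest of the 8 and mutant 2 lay within the WT range, and the log2 fold change of -0.18 ± 0.14 (limma adjusted p = 0.552) was 0.09 without mutants 3 and 4. Exons of Inpp5e overlap those of Pmpca on the opposite strand by 874 bases. Evc (chromosome 5, 37289098 to 37336894), which binds Smoothened in a zone near the base of the cilium, was at 11.8, 13.0, 11.3 and 11.4 TPM in WT against 9.74, 13.0, 9.38 and 10.3 TPM in mutants. Mutants 1, 3 and 4 lay below every WT embryo, and mutant 2 was marginally above WT 2, the highest WT embryo. The log2 fold change of Evc was -0.16 ± 0.11 (limma adjusted p = 0.488). Its partner Evc2 was at 20.2 ± 1.36 and 19.1 ± 2.53 TPM. Arl13b, a GTPase of the ciliary membrane, was at 13.8 ± 0.146 TPM in WT, against 15.7, 14.6, 11.9 and 12.1 TPM in mutants 1 to 4, the first 2 above and the last 2 below every WT embryo.

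All 12 transition zone genes were lower on average (median log2 fold change -0.13). Of them, 2 had an unadjusted p under 0.05 (16.7%, against 8% of all kept genes). These 2, B9d1 and B9d2, encode B9 domain proteins that form a module with Mks1. B9d1 (chromosome 11, 61505144 to 61512931) was at 35.0, 34.0, 37.0 and 35.8 TPM in WT against 34.8, 28.5, 27.8 and 27.0 TPM in mutants. Only mutant 1 reached the WT range, and the log2 fold change was -0.26 ± 0.08 (limma adjusted p = 0.299), and -0.16 without mutants 3 and 4. B9d2 (chromosome 7, 25680780 to 25686558) was at 32.7, 28.0, 24.4 and 27.0 TPM in WT against 27.6, 21.7, 24.0 and 18.4 TPM in mutants (log2 fold change -0.28 ± 0.13, limma adjusted p = 0.369). The unadjusted limma p of B9d2, 0.0499, was close to the limit. It was 0.0736 with median-ratio scaling and 0.0737 with limma voom, but 0.0323 with array weights. Mks1 itself was at 11.1 to 12.8 TPM in WT, 11.4 TPM in mutant 1, 12.9 TPM in mutant 2, and 6.07 and 7.67 TPM in mutants 3 and 4.

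The widest spread among mutants was in Cep290 (chromosome 10, 100487558 to 100574840), which links the microtubules of the transition zone to the membrane. It was at 3.93, 4.55, 4.78 and 4.78 TPM in WT against 4.81, 5.69, 2.27 and 2.26 TPM in mutants. Mutants 1 and 2 were above every WT embryo and mutants 3 and 4 below, with 501 to 1202 reads per library behind the values. The log2 fold change of -0.28 ± 0.24 (limma adjusted p = 0.573) was 0.18 without mutants 3 and 4. Tmem67 (chromosome 4, 12039355 to 12090020), the receptor-like protein meckelin, was at 4.10, 4.22, 3.97 and 4.15 TPM in WT against 4.39, 4.44, 3.29 and 3.59 TPM in mutants. Rpgrip1l (chromosome 8, 91217030 to 91313262), a scaffold of the transition zone, was at 4.43, 4.61, 4.65 and 4.70 TPM in WT against 4.83, 5.27, 3.94 and 3.69 TPM in mutants. Both repeated the order of Cep290, with log2 fold changes of -0.06 and -0.05 that were 0.08 and 0.11 without mutants 3 and 4. Of the tectonic genes, Tctn1 was at 7.50 ± 0.686 and 5.80 ± 1.65 TPM, Tctn2 at 8.54 ± 0.577 and 7.83 ± 0.724 TPM and Tctn3 at 11.3 ± 1.45 and 11.1 ± 1.39 TPM. Exons of Tctn1, Cep290 and Tmem67 overlap genes on the opposite strand by 2113, 881 and 420 bases, and those of Tmem216 by 169. Cc2d2a, Tmem216 and Tmem231 had log2 fold changes of -0.15 to -0.07.

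Ofd1 (chromosome X, 166390033 to 166440704), a protein of the distal centriole from which the cilium grows, was at 14.5, 15.9, 14.9 and 14.8 TPM in WT against 14.5, 14.2, 8.92 and 11.1 TPM in mutants. The groups did not overlap, but mutant 1 nearly reached the lowest WT embryo. The log2 fold change was -0.31 ± 0.14 (limma adjusted p = 0.370), and -0.07 without mutants 3 and 4. Its exons overlap those of Trappc2 on the opposite strand by 131 bases.

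**Figure D4:**
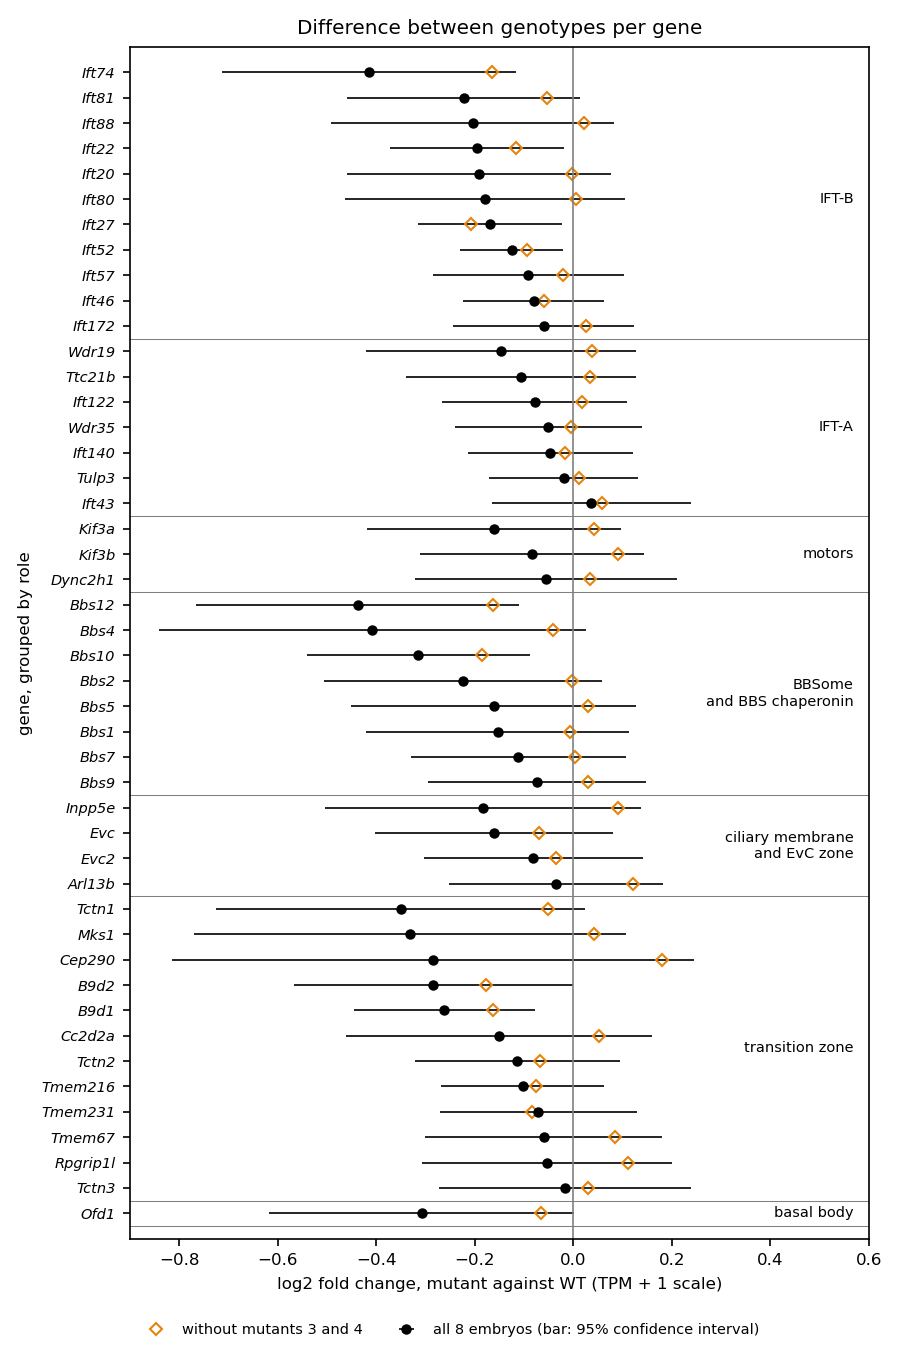
Log2 fold change of mutant against WT on the TPM + 1 scale for each of the 46 genes, with the 95% confidence interval from limma (black), and the same value without mutants 3 and 4 (orange diamonds). The black points are left of 0 for 45 genes, and the diamonds for 24.

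**Figure D5:**
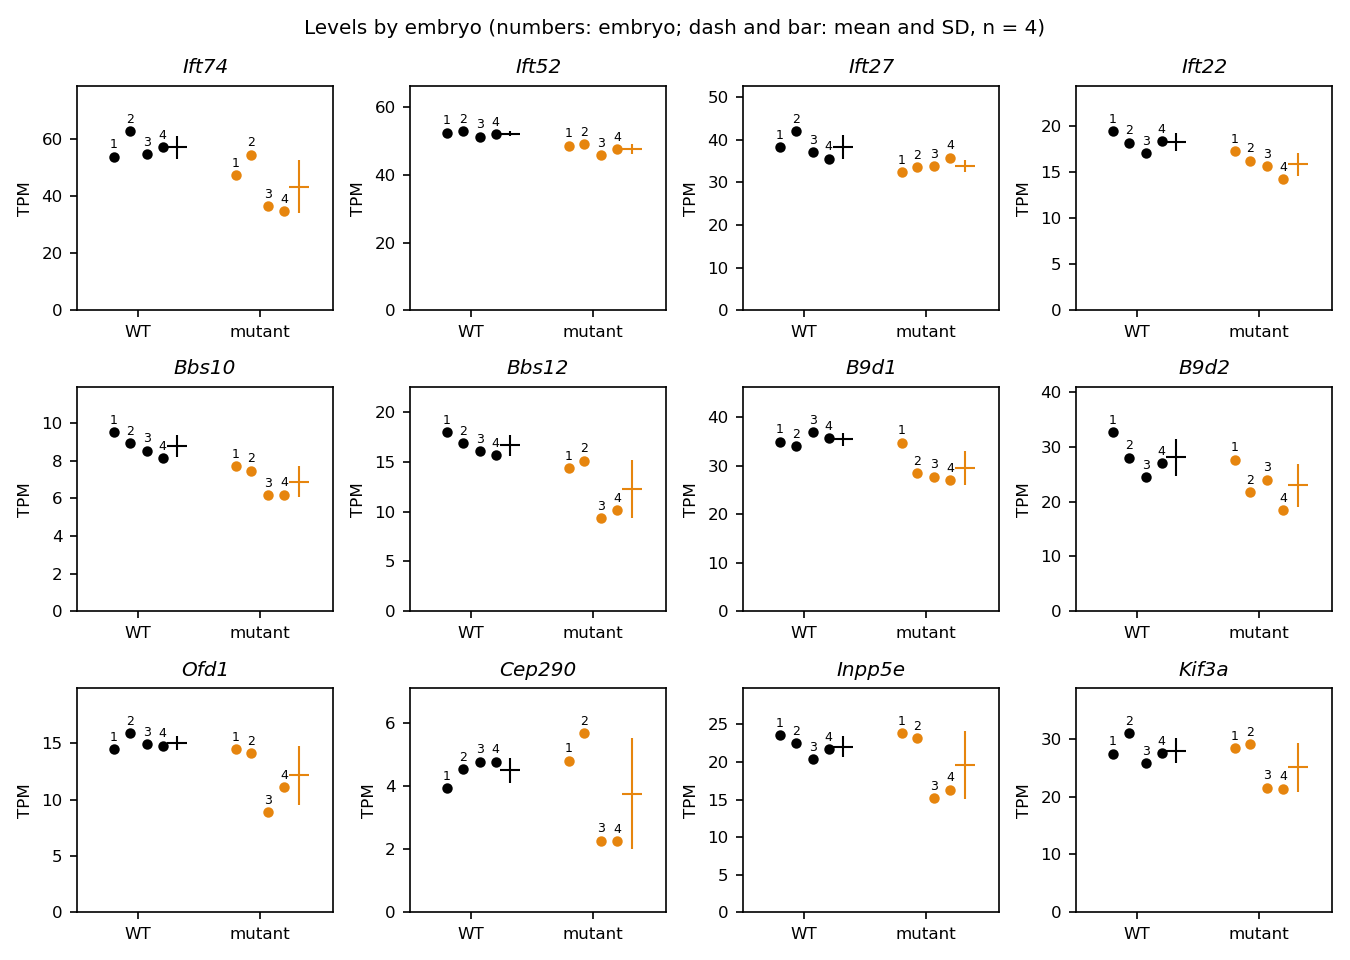
TPM in each embryo (numbered points), with mean and SD (n = 4), for 12 genes. In Cep290, Inpp5e and Kif3a mutants 1 and 2 overlap WT or lie above it while mutants 3 and 4 lie below, whereas in Ift27 mutants 1 and 2 are the lowest.

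Other ciliary genes, from lists of genes outside the naming rule, were summarised in the same fit. None passed the threshold. Their counts stand beside 62.3% of all kept genes lower on average and 8% lower at an unadjusted p under 0.05. Of 12 kept subunits of IFT and motors, 7 were lower on average and 1 had an unadjusted p under 0.05, Ttc26, of IFT-B, at 15.9 ± 0.660 TPM (SD, n = 4) in WT against 13.6 ± 1.31 TPM in mutants. Of 16 genes of the BBSome and membrane traffic, 14 were lower and 4 had an unadjusted p under 0.05, among them Arl6, the GTPase that recruits the BBSome, at 36.8 ± 0.591 and 31.4 ± 4.33 TPM, and Unc119b, a carrier of lipid-modified proteins, at 97.6 ± 3.61 and 88.2 ± 5.34 TPM. Of 18 further genes of the transition zone and the adjoining inversin compartment, 17 were lower and 4 had an unadjusted p under 0.05. Among them, Tmem138, was at 29.5 ± 1.22 and 26.0 ± 1.96 TPM.

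Of 22 genes of the basal body and of cilium formation, 21 were lower and 3 had an unadjusted p under 0.05. Mutants 3 and 4 were the lowest for 21 (95.5%), against 32.7% of all kept genes. Cby1, which acts at the distal centriole, was at 77.1, 79.2, 69.0 and 74.1 TPM in WT against 67.4, 62.2, 59.1 and 61.7 TPM in mutants, groups that did not overlap (log2 fold change -0.25 ± 0.06, limma adjusted p = 0.281). Ccp110, a cap of the centriole that blocks cilium growth, was at 31.7 ± 2.07 and 23.7 ± 7.65 TPM. Without mutants 3 and 4 the median of that list was 0.04, against -0.16 with all embryos. Of 9 genes of cilium disassembly 8 were lower (median -0.05), 1 of them at an unadjusted p under 0.05, Nedd9, a partner of the kinase Aurora A, at 27.0 ± 2.47 and 21.9 ± 4.11 TPM.

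Of 8 kept RFX and motile cilium regulators, 7 were lower on average and 1 had an unadjusted p under 0.05. That gene was Foxj1, the main regulator of motile cilia, at 6.50, 7.64, 6.07 and 7.13 TPM in WT against 6.83, 5.24, 4.51 and 3.08 TPM in mutants. Rfx3 was at 13.8, 14.6, 14.6 and 13.8 TPM in WT against 13.0, 17.2, 12.8 and 12.3 TPM in mutants, with mutant 2 the highest of the 8. Of 16 genes of the motile axoneme only 7 were kept, and Dnah5 and Dnah11, the outer arm dyneins, were at 0.05 to 0.31 TPM in the 8 embryos. Gli1, a transcription factor and target of the Hedgehog pathway, was at 29.5, 30.1, 28.7 and 25.8 TPM in WT, against 23.2, 28.9, 10.7 and 19.5 TPM in mutants (limma adjusted p = 0.372). Mutant 2 lay within the WT range and mutants 3 and 4 were the lowest.

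Across the 46 members, genes with longer merged exons tended to have less negative log2 fold changes (Spearman 0.34, n = 46 genes), against 0.11 over 13246 kept genes with a length. These points share the same 8 libraries, so the relation is a description. Level showed no such relation among the members (Spearman -0.02).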

How the data were processed

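The authors deposited one table of TPM per gene symbol, with 1 column for each of the 8 embryos. All columns were matched by name and 0 were left over. Libraries were made with the TruSeq RNA kit version 2, per the labels' protocols. The build is GRCm38 (mm10), per the submitters' processing notes. The aligner, counter and annotation release: not given in the sources used here. TPM holds no read totals, so reads were recovered from the TPM steps with merged exon lengths from GENCODE M21. Of kept genes with a unique model 97.5% gave whole numbers within 0.02 reads in all 8 libraries, as did 45 of 46 members.

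Genes with at least 1 TPM in at least 4 embryos were compared on log2(TPM + 1) by limma (3.58.1; R 4.3.3). The model held genotype alone and moderated variances with a mean trend. Tests were two-sided, with Benjamini-Hochberg adjustment over all 13596 genes. Fold changes on this scale understate those of low genes. The script of the fit was also tested on simulated data. Members and lists were chosen with earlier results of these data known, so no test was made over a list. Values in every embryo are given for the 2 members of each role with the smallest p (1 for motors and basal body), members whose groups did not overlap or with an unadjusted p under 0.05, and the 3 highest and 3 lowest by level, and other values by range or mean. The listed symbols Tctex1d2, Wdr34 and Wdr60 are not analysed here. From each further list up to 2 genes with the smallest p are named. Rfx3, Dnah5, Dnah11, and further members given by embryo, were chosen after their values were seen. Same-numbered embryos are not paired by the labels. Alternatives were other pseudocounts, filters, scaling, weights, no trend, Xist as a covariate, the replicate number as a block and leaving out each embryo. Without mutants 3 and 4, and limma voom on recovered reads, were added after seeing the data. Some genes of the further lists are not reported here.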

Additional observations from a re-analysis of the deposited data

Results flagged for a closer look

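In 7 of the 92 groups of 4 embryos (46 members in 2 genotypes) a single embryo lay apart from the other 3 by more than the critical value of a Dixon test, where chance gives about 1 group in 20. In WT 2, Ttc21b was at 9.67 TPM against 8.92 to 8.94 in the other WT embryos, Wdr19 at 5.26 against 4.85 to 4.92, and Wdr35 at 13.1 against 11.5 to 11.8, all 3 of them IFT-A genes. WT 2 was also the highest of the 8 embryos for 21 of the 46 members (45.7%), against 16.5% of all kept genes. In WT 3, Tctn1 was at 6.48 TPM against 7.74 to 7.96. In mutant 2, Dync2h1 was at 9.84 TPM against 6.77 to 7.12 in the other mutants, and Wdr35 at 13.1 against 11.0 to 11.3. In mutant 3, Ift57 was at 11.5 TPM against 14.2 to 14.3.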

How the results depend on the processing

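Across 19 alternatives no member passed the threshold, and the smallest adjusted p of any member was 0.104, with array weights. Of 338 values of the 18 members given by rule, 329 kept the direction found with all embryos. Changing the filter, dropping the trend or adding the replicate block leaves the fold change itself unchanged, so those values could not turn. Without mutants 3 and 4 the log2 fold change turned to 0.039 in Wdr19, 0.034 in Ttc21b, 0.092 in Inpp5e, 0.043 in Kif3a, 0.181 in Cep290, 0.084 in Tmem67 and 0.110 in Rpgrip1l. Leaving out each embryo in turn put Tmem67 at -0.111 to 0.004 (without mutant 3) and Rpgrip1l at -0.126 to 0.013 (without mutant 4). Leaving out mutants 3 and 4 also called 3 genes, none a member, against 0 with all embryos. That left 1 member at an unadjusted p under 0.05 and 10 without overlap, a median log2 fold change of -0.003 and a difference in summed TPM of -21.3, against 8, 4, -0.149 and -85.6. Array weights gave 19 members at an unadjusted p under 0.05 (20.7% of all kept genes lower). Leaving out each embryo in turn gave 4 to 17 members at an unadjusted p under 0.05 (4.17% to 17.1% of all kept genes lower). Members without overlap numbered 4 to 13, all lower (4.24% to 12.9% of all kept genes lower). The same settings gave 0 to 1 gene called and a median log2 fold change of -0.184 to -0.077. Differences in summed TPM were -108.0 to -60.5. With the replicate block, 11 members had an unadjusted p under 0.05 (9.37% of all kept genes lower), 0 genes were called and the median was -0.149. The numbers do not pair the embryos: deviations of same-numbered embryos correlated at -0.062, 0.04, -0.19 and -0.25. Median-ratio scaling turned the split of genes at an unadjusted p under 0.05 from 1088 lower and 754 higher to 939 and 1219, while members went from 8 to 9 lower, with 0 higher in both. The causes were not tested. TPM fixes each library's total, so a level is relative to the other RNAs in it.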
